A study of Mus musculus with 12 samples.

Results

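The immediate early and heat shock genes are 39 of the 38561 genes in the count table, 32 immediate early genes and 7 heat shock genes, chosen by gene symbol, and all 39 had a row. Of these, 36 passed the filter on low counts (29 immediate early and 7 heat shock), and Fosl1, Egr3 and Dusp2 did not. The libraries are poly(A) RNA-seq of hand-picked pancreatic islets, 1 library per mouse, from 12 male mice aged 11 weeks in 4 groups of 3. B10 mice have the C57BL/10SnSg background and NOD mice the NOD/LtJ background, which is prone to autoimmune diabetes. B10_insHEL and NOD_insHEL mice carry in addition the transgene B6-Tg(ILK3mHEL)3Ccg, labelled insHEL, in which the insulin promoter is known to drive hen egg lysozyme in beta cells. All 4 groups share the Ragtm1Mom allele (Rag-/-), the MHC k haplotype and normoglycemia, so that the mice lack mature lymphocytes by design. Collagenase digestion and washing were done for every group in the presence of α-amanitin and actinomycin D, inhibitors of transcription. No library made without the inhibitors was analysed here, so that RNA made during isolation and RNA present in the animal cannot be told apart, and the values below are levels in the isolated islets.

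Immediate early genes are transcribed within minutes of a stimulus from promoters that already hold their activators, without new protein synthesis, and most of their mRNAs decay quickly. Their products include the AP-1 subunits of the Fos and Jun families, the Egr zinc finger factors, the Nr4a orphan nuclear receptors, and feedback proteins such as the Dusp phosphatases, which switch MAP kinases off, and the Zfp36 proteins, which promote mRNA decay. Heat shock genes are driven by the transcription factor HSF1 when unfolded protein accumulates, and encode the chaperones of the cytosol. Enzymatic dissociation of tissue is known to raise both groups in many cell types, while in beta cells glucose and calcium entry also induce several immediate early genes.

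Promoter sequences from RefSeq (GRCm38.p6, 250 bases before the annotated start) were found for 29 of the 39 genes. Those below were picked, among members described below, because they hold elements known from genes of their class, in capitals. Dusp1 holds the full cAMP response element TGACGTCA, Dusp5 holds 2 adjacent CArG boxes (the site of serum response factor), Nr4a2 holds 4 copies of the element's core TGACG on either strand, and Hspa1a, Hspa1b and Hsph1 each hold 1 pair of facing GAA units (GAANNTTC or TTCNNGAA), the core of a heat shock element.
Dusp1, chr17:26508473-26508722, minus strand: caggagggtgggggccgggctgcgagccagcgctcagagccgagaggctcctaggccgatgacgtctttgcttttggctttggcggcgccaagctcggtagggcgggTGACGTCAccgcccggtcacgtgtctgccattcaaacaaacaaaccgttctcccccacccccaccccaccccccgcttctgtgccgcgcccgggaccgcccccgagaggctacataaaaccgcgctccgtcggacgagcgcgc
Dusp5, chr19:53528895-53529144, plus strand: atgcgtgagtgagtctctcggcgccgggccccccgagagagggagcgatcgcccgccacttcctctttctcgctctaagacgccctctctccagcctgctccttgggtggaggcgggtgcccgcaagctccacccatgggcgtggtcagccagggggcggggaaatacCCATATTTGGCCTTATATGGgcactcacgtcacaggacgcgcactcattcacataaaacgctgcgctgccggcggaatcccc
Nr4a2, chr2:57124004-57124253, minus strand: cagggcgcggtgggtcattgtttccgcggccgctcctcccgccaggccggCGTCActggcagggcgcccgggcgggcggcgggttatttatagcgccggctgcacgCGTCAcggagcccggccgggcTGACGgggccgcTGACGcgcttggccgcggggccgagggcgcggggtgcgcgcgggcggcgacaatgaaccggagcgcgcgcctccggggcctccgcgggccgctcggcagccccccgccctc
Hspa1a, chr17:34972157-34972406, minus strand: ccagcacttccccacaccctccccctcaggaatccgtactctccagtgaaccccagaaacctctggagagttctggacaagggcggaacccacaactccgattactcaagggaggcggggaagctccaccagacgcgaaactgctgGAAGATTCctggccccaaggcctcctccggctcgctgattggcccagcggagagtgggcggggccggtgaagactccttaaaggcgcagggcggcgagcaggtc
Hspa1b, chr17:34959239-34959488, minus strand: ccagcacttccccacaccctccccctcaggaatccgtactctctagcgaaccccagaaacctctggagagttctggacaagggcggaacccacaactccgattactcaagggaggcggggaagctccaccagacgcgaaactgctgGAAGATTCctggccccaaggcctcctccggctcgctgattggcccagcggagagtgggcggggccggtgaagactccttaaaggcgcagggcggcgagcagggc
Hsph1, chr5:149636337-149636586, minus strand: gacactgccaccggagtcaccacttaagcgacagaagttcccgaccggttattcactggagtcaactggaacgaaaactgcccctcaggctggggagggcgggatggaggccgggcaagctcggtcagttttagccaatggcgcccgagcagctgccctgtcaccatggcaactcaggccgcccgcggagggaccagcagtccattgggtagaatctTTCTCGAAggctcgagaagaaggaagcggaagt
The promoters of Hspa1a and Hspa1b were the same at 247 of 250 positions. Searched on both strands over the same 250 bases, TGACG was found in 15 of the 29 member genes and in 19.8% of all 27025 genes with a promoter there, with every full TGACGTCA also counting as TGACG. The full TGACGTCA was found in 3 (Btg2, Dusp1 and Maff) against 1.77% of all genes, the CArG box in 3 (Dusp5, Egr2 and Zfp36) against 1.62%, and the pair of facing GAA units in 7 (Egr2, Fosl2, Hspa1a, Hspa1b, Hspb1, Hsph1 and Jun) against 14.5%. The longer heat shock element of 3 alternating GAA and TTC units was found in 0 of the 29 and in 0.514% of all genes. The AP-1 site TGACTCA was found in 0 of the 29 against 5.16%, TATAAA in 2 against 14.3% and CCAAT in 13 against 37.5%. Jund and Ier5 have promoters there that hold none of the elements shown in capitals. Hsph1 has a second annotated start, whose window holds the same pair of GAA units. A match describes the letters in the window and was not tested as a site.

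Library totals ranged from 2212062 counts (NOD_insHEL replicate 3) to 21138456 (B10 replicate 2), and 20 to 137 islets were picked per library. Expression is given as CPM, the read count of a gene scaled to a common library size with TMM factors. A gene with 0 counts can have been present at up to 0.142 CPM in the deepest and 1.36 CPM in the shallowest library, on 3 counts of the unscaled total and for counting error only. The sample descriptions number the 3 B10 libraries in a series apart from the other 9, which run from 1 to 29, so that, if the numbers mark a batch, it cannot be told apart from group wherever B10 enters. The 11 beta cell markers summed to 183900 to 294200 CPM in every library. Among the lymphocyte markers Cd3e, Cd3d and Ms4a1 had 0 counts in all 12 libraries, and the list summed to 0.928 to 3.76 CPM.

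Most members were measurable in every group, at low to moderate levels. Per kilobase of merged exons, averaged over the 12 libraries, the highest was Btg2, an antiproliferative co-regulator of mRNA deadenylation, at 51.1 ± 5.09 CPM per kb (SD over 12 libraries), followed by Jund at 32.9, the chaperone Hsph1 at 29.4, Rhob at 23.4 and Hsp90aa1 at 23.2 CPM per kb. Jun had 13.4, Fos 11.5 and Egr1 5.57 CPM per kb. At the bottom were Fosl1, Egr3 and Dusp2. Fosl1 had 0, 0 and 0 counts in B10, 1, 0 and 0 in B10_insHEL, 0, 0 and 0 in NOD and 0, 0 and 0 in NOD_insHEL. Egr3 had 0, 2 and 1 counts in B10, 3, 2 and 0 in B10_insHEL, 0, 3 and 3 in NOD and 2, 3 and 1 in NOD_insHEL. Dusp2 had 3, 2 and 1 counts in B10, 1, 1 and 3 in B10_insHEL, 1, 5 and 4 in NOD and 0, 0 and 0 in NOD_insHEL. These 3 were too low to compare. Btg2, Jund and Rhob ranked 1, 2 and 4 of the 39 per kilobase. How much of a level is basal and how much induced was not tested. Dusp5, Dnajb1, Jun, Fos and Nr4a1 ranked 7, 8, 9, 10 and 12. Fosb, Nr4a3, Egr2 and Egr3 ranked 34, 35, 36 and 38, with 302, 173, 72 and 20 counts over the 12 libraries.

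Btg2 was also the steadiest member. It had 134, 123 and 148 CPM in B10, 136, 121 and 143 in B10_insHEL, 138, 153 and 120.5 in NOD and 163, 149 and 154 in NOD_insHEL. Its libraries differed by at most 1.36-fold, NOD_insHEL lay above B10_insHEL without overlap while the groups of the other pairwise comparisons overlapped, and no comparison passed (the largest log2 difference was 0.22 for NOD_insHEL against B10_insHEL, SE 0.11, adjusted p = 0.218, edgeR).

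Libraries of 1 group differed from each other far more in the heat shock members than in most genes. The SD of log2 CPM within groups had a median of 0.86 over the 7 heat shock members and 0.37 over the 29 immediate early members, against 0.22 over the 15352 genes tested. Among the abundant ones Hsph1 had an SD of 0.86, above 97.1% of all genes, and Hsp90aa1 0.62. Nr4a1 (1.03) and Fos (0.57) led the immediate early members with more than 10 CPM on average, while Jund (0.14), Zfp36l2 (0.14) and Btg2 (0.13) lay below the median gene.

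The same libraries were high for most heat shock members. In the NOD group replicate 1 was the highest of the 3 for 7 of 7 heat shock members, where 34.3% of all genes tested were highest in that library. In B10 it was replicate 2 for 6 of 7 (31.3% of all genes), and in NOD_insHEL replicate 2 for 5 of 7 (32.3%). In B10_insHEL replicates 2 and 3 shared the top (3 and 4 of 7), and replicate 1 was highest for none.

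Immediate early members peaked in other libraries. NOD replicate 2 was the highest of its group for 23 of 29 (33.6% of all genes), B10_insHEL replicate 1 for 17 of 29 (33.6%), NOD_insHEL replicate 1 for 16 of 29 (30.5%) and B10 replicate 3 for 15 of 29 (36.7%). In 3 of the 4 groups the library that was highest for most immediate early members was highest for 0 of 7 heat shock members, and in NOD_insHEL for 2 of 7. These counts describe 12 libraries, and the genes within a list are not independent of each other. The endothelial markers, summed, were 2035 CPM in NOD replicate 2 against 1418 and 1780 in the other NOD libraries. The alpha cell markers summed to 7423 CPM in NOD replicate 2, against 22860 and 21240 in the others of that group. In B10 they summed to 6032 CPM in replicate 3, against 32630 and 29410. In B10_insHEL and NOD_insHEL their sum was instead highest in replicate 1, at 31730 and 30380 CPM. Acinar markers were 68.8 CPM in B10_insHEL replicate 1 and 44.7 in replicate 3, against 2344 in replicate 2. The part of cell content in these differences was not tested.

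**Figure D1:**
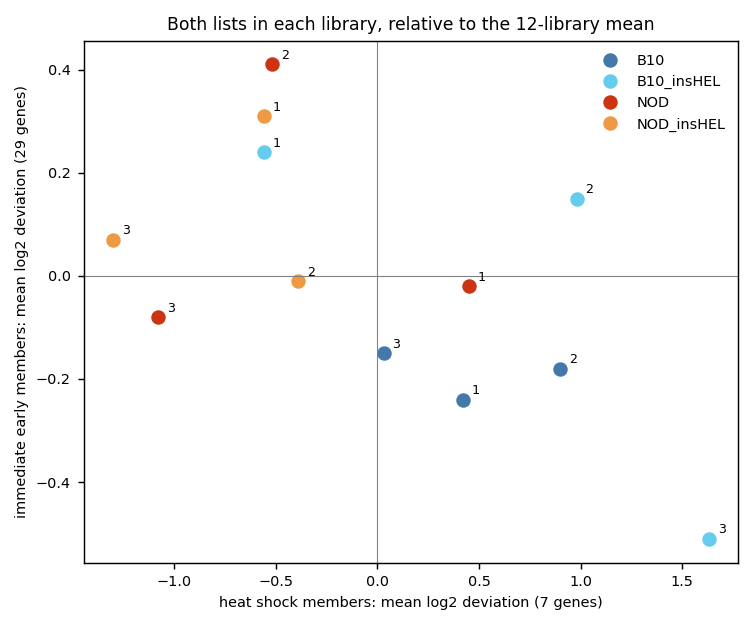
Each point is 1 library, numbered by replicate and coloured by group. The x axis is the mean log2 deviation of the 7 heat shock members from their 12-library mean, the y axis the same over the 29 immediate early members tested. B10_insHEL replicate 3 lies at the far right (1.63) and bottom (-0.51), and NOD replicate 2 at the top (0.41) with a heat shock value of -0.52.

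Hspa1a and Hspa1b, the stress-inducible Hsp70 genes that sit next to each other on chromosome 17, varied most within groups of the heat shock members detected in all 12 libraries. Hspa1a had 4.27, 9.06 and 3.68 CPM in B10, 2.69, 4.44 and 32.4 in B10_insHEL, 20.1, 5.81 and 2.74 in NOD and 5.56, 8.18 and 3.76 in NOD_insHEL. Hspa1b had 6.03, 16.0 and 5.45 CPM in B10, 2.26, 9.65 and 44.9 in B10_insHEL, 22.8, 7.2 and 3.6 in NOD and 8.24, 4.22 and 7.04 in NOD_insHEL. B10_insHEL replicate 3 and NOD replicate 1 stood above the other 10 libraries for both genes. Because 62.3% of the 50-base stretches of the Hspa1b transcript are also found in other annotated transcripts (66.3% for Hspa1a, mostly each in the other), reads of the pair are hard to assign and the 2 genes are uncertain individually. Their summed CPM was 77.3 in B10_insHEL replicate 3 and 42.9 in NOD replicate 1, and 4.94 to 25.1 in the other 10.

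Hsph1, an Hsp110 nucleotide exchange factor that works with Hsp70, was far more abundant and had 266.5, 408 and 174 CPM in B10, 102.2, 529.7 and 428 in B10_insHEL, 194, 91.9 and 65.8 in NOD and 89.2, 144 and 70.4 in NOD_insHEL. Its highest libraries were B10_insHEL replicate 2 and 3 and B10 replicate 2, and within NOD it was highest in replicate 1. The co-chaperone Dnajb1 had 99.2 CPM in B10_insHEL replicate 3 and 70.9 in NOD replicate 1, and 25.8 to 58.3 in the other 10. The small heat shock gene Hspb1 ran from 0 counts in NOD_insHEL replicate 3 to 7.74 CPM in B10_insHEL replicate 2. Of its 50-base stretches 51.6% occur in other genes, and 1 of these, Hsp25-ps1, held 133 counts in B10, 132 for B10_insHEL, 85 for NOD and 39 for NOD_insHEL, so that Hspb1 is uncertain too. B10_insHEL replicate 3 and NOD replicate 1, of different strains, thus had the highest Hspa1a, Hspa1b and Dnajb1.

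**Figure D2:**
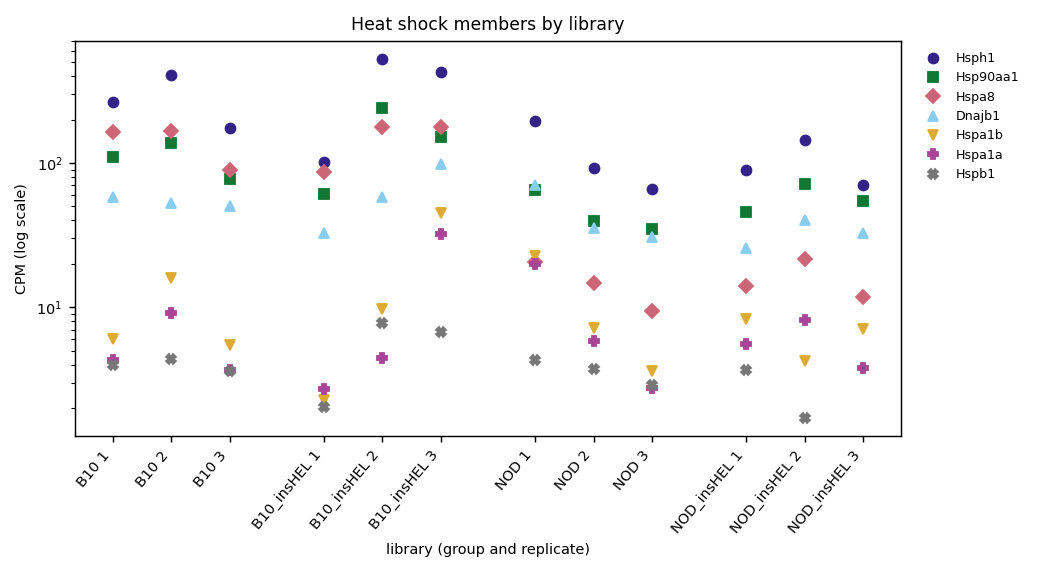
CPM on a log axis for the 7 heat shock members in each of the 12 libraries (x axis, group and replicate). Symbols of 1 library tend to shift up or down together, as in NOD replicate 1 against NOD replicate 3, while Hspa8 is set apart by strain. Hspb1 in NOD_insHEL replicate 3 had 0 counts and is not drawn.

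Some members of both lists differed between islets of the 2 strains. Of the immediate early members that passed, 9 were higher and 4 lower in NOD without the transgene, and 3 were higher and 2 lower with it. The heat shock members that passed were lower. All p-values below are from edgeR's quasi-likelihood test, two-sided, with Benjamini-Hochberg adjustment over 15352 genes, and passing means an adjusted p under 0.05. In NOD against B10, 14 of 36 members passed, 9 higher and 5 lower in NOD, where 28.4% of all genes passed (13.5% higher and 14.9% lower). Of the 29 immediate early members 9 were higher, 4 lower and 16 did not pass, with a median log2 difference of 0.41 against 0.03 over all genes. The only heat shock member that passed was Hspa8, which was lower. The shares that passed were 44.8% of the immediate early and 14.3% of the heat shock members, against the 28.4% of all genes. The member count was 7 with the islet number as a covariate, 7 with the acinar score as a covariate, 9 without B10 replicate 2 and 8 without NOD replicate 2. All genes that passed numbered 4353 in the main fit. In these settings they numbered 2688 and 1198 of 15352, 3018 of 15541 and 3302 of 15486, in the same order. The acinar markers, digestive enzymes of the exocrine pancreas, summed to 3368 to 4310 CPM in B10 and 149 to 261 in NOD (10 of 16 tested lower, 0 higher), and the endothelial markers to 1042 to 1157 in B10 and 1418 to 2035 in NOD (11 of 12 tested higher, 0 lower). The acinar score, a mean log2 level of acinar genes, was 6.71 to 7.01 in B10 and 2.82 to 3.47 in NOD. As a covariate it is therefore hardly separable from strain in this comparison. The islet number, 20 to 74 in B10 and 53 to 137 in NOD, is partly tied to strain here too. Fewer cells of a type and less RNA per cell cannot be told apart in such samples, and the part of the endothelial cells was not tested.

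In NOD_insHEL against B10_insHEL, which lies within the description numbers 1 to 29, 6 of 36 members passed, 3 higher (Jund, Ier3 and Dusp1) and 3 lower (Ier5, Nr4a2 and Hspa8), where 12.1% of all genes passed (5.55% higher and 6.5% lower). The median of the 29 immediate early members was 0.08 and that of the 7 heat shock members -1.41, all 7 being below 0, against -0.01 over all genes. The shares that passed were 17.2% of the immediate early and 14.3% of the heat shock members. The member count was 10 without B10_insHEL replicate 1 and 3 without NOD_insHEL replicate 3, the shallowest library. All genes that passed numbered 1850 in the main fit, and 1978 of 15718 and 1437 of 15624 in these fits. The endothelial sum was 1222 to 1292 CPM in B10_insHEL and 1091 to 1279 in NOD_insHEL, with 0 of 12 markers higher and 2 lower. Averaged over both comparisons 15 of 36 members passed, 9 higher (Jund, Dusp1, Ier3, Dusp5, Jun, Egr1, Ier2, Junb and Nr4a3) and 6 lower (Ier5, Nr4a2, Hspa8, Zfp36l2, Hsp90aa1 and Hsph1), where 33.3% of all genes passed (15.7% higher and 17.6% lower), and 9 passed with the acinar score as a covariate. With that covariate 2154 of 15352 genes passed averaged, against 5107 in the main fit. The strain differences with and without the transgene, which share no library, had the same sign for 30 of 36 members (83.3%) and for 70.9% of all genes.

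**Figure D3:**
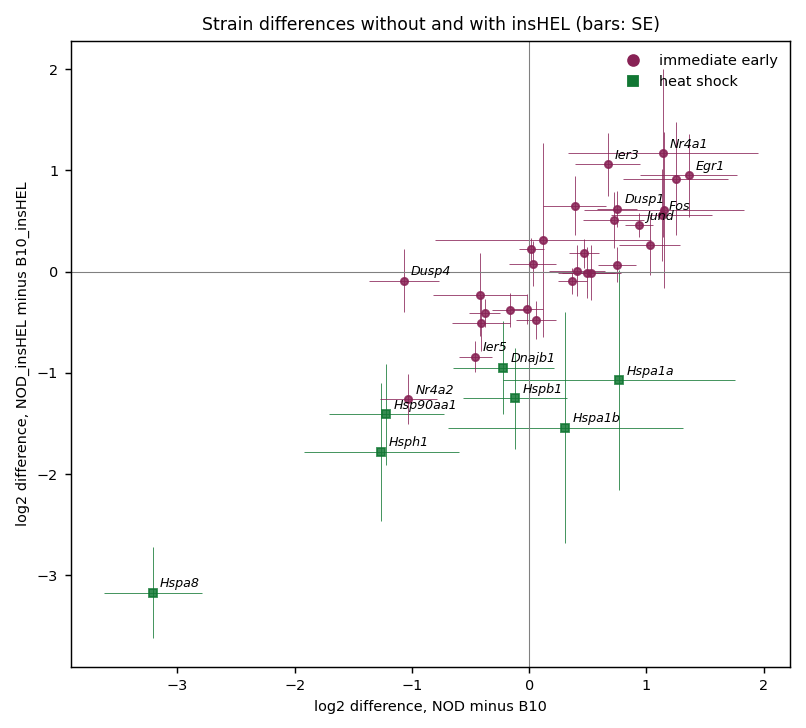
Log2 strain difference of the 36 members tested, without the transgene (x axis) and with it (y axis), bars giving the SE. Hspa8 lies alone near -3 on both axes, the other heat shock members (squares) lie below 0 on the y axis, and Jund, Dusp1, Egr1 and Ier3 lie above 0 on both.

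Among the AP-1 subunits Jund differed most firmly. Jund (ENSMUSG00000071076, chromosome 8, 70698949 to 70700616, plus strand, a single-exon gene) restrains growth in many cells and is the most constitutive Jun gene. It had 36.7, 38.2 and 34.5 CPM in B10, 54.8, 40.4 and 46.8 in B10_insHEL, 75.0, 67.2 and 68.0 in NOD and 61.2, 63.2 and 72.8 in NOD_insHEL. All 6 libraries of NOD background were above all 6 of B10 background. The log2 difference was 0.94 (SE 0.12, adjusted p = 6.47e-06) for NOD against B10, 0.46 (SE 0.12, adjusted p = 0.0145) with the transgene and 0.70 (SE 0.08, adjusted p = 1.92e-06) averaged. The call with the transgene ended without B10_insHEL replicate 2 or NOD_insHEL replicate 3 (highest adjusted p = 0.0766) and with only the compared groups fitted. The interaction was -0.48 (SE 0.17, adjusted p = 0.268) and did not pass. B10_insHEL lay above B10 without overlap, by 0.37 (SE 0.12, adjusted p = 0.0596), and did not pass. An antisense gene, Gm11175, overlaps Jund and had at most 1.58 CPM.

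Jun, the main partner of Fos in AP-1, was higher in NOD than in B10. It had 32.5, 33.3 and 34.5 CPM in B10, 34.9, 42.6 and 43.1 in B10_insHEL, 61.9, 68.4 and 37.3 in NOD and 46.4, 40.6 and 38.0 in NOD_insHEL. NOD replicates 1 and 2 were the highest of the 12 libraries, and NOD replicate 3 lay just above B10. NOD differed from B10 by 0.75 (SE 0.16, adjusted p = 0.00218), NOD_insHEL from B10_insHEL by 0.07 (SE 0.17, adjusted p = 0.849), and the interaction, which tests the change of the difference, was -0.68 (adjusted p = 0.268). The averaged difference was 0.41 (SE 0.12, adjusted p = 0.0120) and did not pass with the islet number or the acinar score as a covariate. An antisense gene, Junos, overlaps Jun and had 0.676 to 1.82 CPM. Junos was also higher in NOD than in B10 (1.05, SE 0.38, adjusted p = 0.0449) and did not pass with the transgene (0.37, adjusted p = 0.657) or averaged (0.71, adjusted p = 0.0698).

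Fos, the classic readout of acute stimulation, did not pass in any comparison. It had 13.9, 12.8 and 25.2 CPM in B10, 27.2, 26.4 and 11.8 in B10_insHEL, 39.6, 50.6 and 20.9 in NOD and 39.2, 24.3 and 33.3 in NOD_insHEL. The libraries of the groups overlapped in every comparison. The log2 difference was 1.13 (SE 0.43, adjusted p = 0.0808) for NOD against B10 and 0.85 (SE 0.31, adjusted p = 0.0652) averaged. Junb, also of AP-1, measured 14.6 ± 1.48 CPM in B10 and 23.9 ± 8.91 in NOD (mean ± SD, n = 3 each) and passed narrowly (0.72, SE 0.26, adjusted p = 0.0483), a call that ended in 8 of 12 analyses with 1 library left out (highest adjusted p = 0.274) and remained without B10_insHEL replicate 2 or 3, NOD replicate 3 or NOD_insHEL replicate 2. It also ended with RLE size factors and with the islet number. The averaged call of Junb (0.62, SE 0.19, adjusted p = 0.0211) ended with the islet number and without B10 replicate 3 or NOD_insHEL replicate 1. The end of Junb overlaps Prdx2 on the other strand, which did not pass for strain (0.16, adjusted p = 0.270). Fosb (0.413 to 4.58 CPM) and Fosl2 (12.7 to 32.6 CPM) did not pass.

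**Figure D4:**
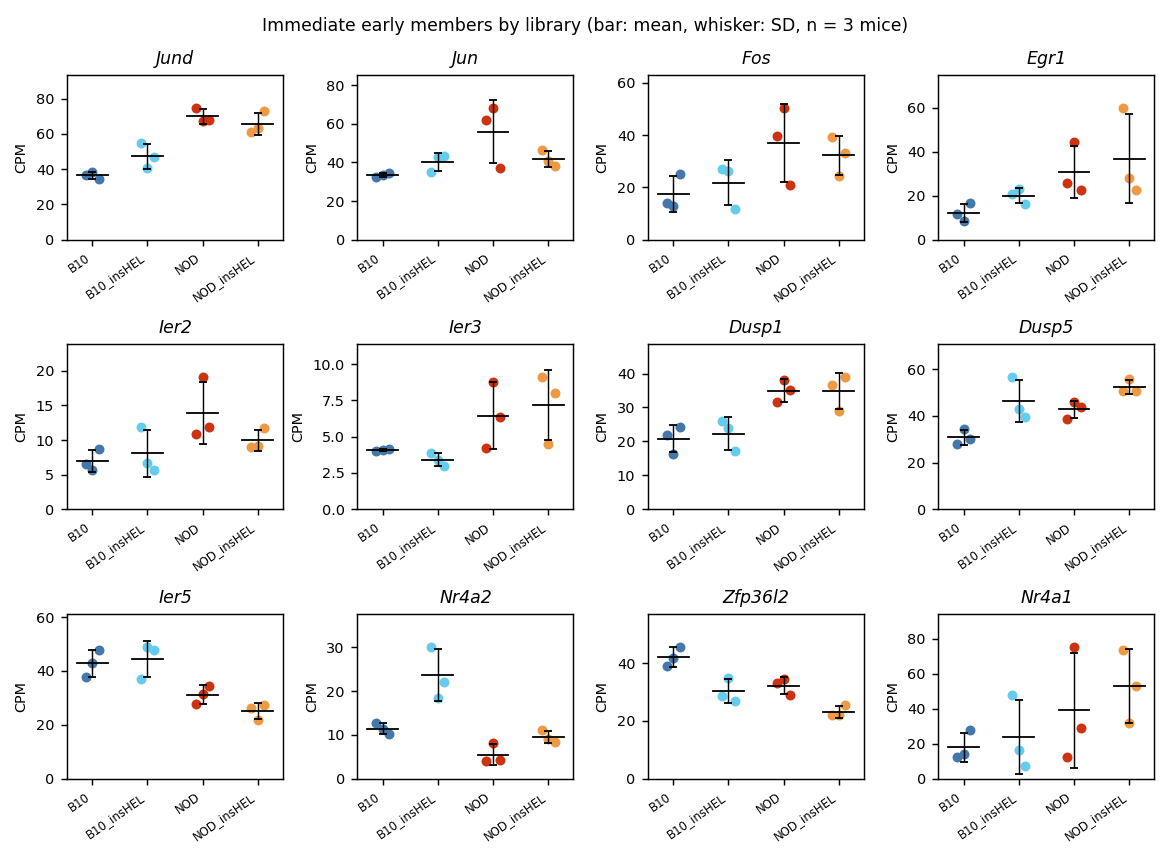
CPM of 12 immediate early members by group, each point 1 mouse, the horizontal bar the mean and the whisker the SD (n = 3), every y axis starting at 0. In Jund and Dusp1 all NOD and NOD_insHEL points lie above all B10 and B10_insHEL points, in Ier5 they lie below, and in Nr4a1 the 3 points of a group spread over much of the axis.

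Egr1 and the Ier genes were mostly higher in NOD, with 1 exception. Egr1, a zinc finger factor induced by growth factors and by glucose in beta cells, had 11.5, 8.65 and 16.7 CPM in B10, 20.7, 22.8 and 16.4 in B10_insHEL, 25.7, 44.3 and 22.6 in NOD and 60.0, 27.8 and 22.5 in NOD_insHEL. NOD lay above B10 without overlap, with NOD_insHEL replicate 1 the highest library. The difference was 1.36 (SE 0.41, adjusted p = 0.0350) for NOD against B10 and 1.16 (SE 0.29, adjusted p = 0.0139) averaged. The former ended without B10 replicate 1 or 2, B10_insHEL replicate 1 or NOD replicate 2 (highest adjusted p = 0.125) and with the replicate number as a block. Neither passed with either covariate, and the former also ended with no filter on low counts. Egr2 (at most 1.39 CPM) did not pass.

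Ier2, an early response nuclear protein gene, was higher in NOD than in B10. It had 6.55, 5.63 and 8.66 CPM in B10, 11.9, 6.61 and 5.67 in B10_insHEL, 10.8, 19.1 and 11.9 in NOD and 9.01, 9.1 and 11.7 in NOD_insHEL. The difference was 1.03 (SE 0.26, adjusted p = 0.00696), and 0.72 without NOD replicate 2, the highest library, where it did not pass (adjusted p = 0.0673). With the transgene it was 0.26 (SE 0.29, adjusted p = 0.629), and averaged it was 0.64 (SE 0.20, adjusted p = 0.0166), which also ended without NOD replicate 2 (adjusted p = 0.061). Both calls ended with the acinar score as well.

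Ier3, a stress-inducible regulator of survival, was the member whose strain difference passed with the transgene and not without. It had 4.04, 4.05 and 4.16 CPM in B10, 3.87, 3.39 and 2.99 in B10_insHEL, 4.21, 8.79 and 6.34 in NOD and 9.11, 4.49 and 7.98 in NOD_insHEL. All 6 libraries of NOD background lay above all 6 of B10 background, NOD replicate 1 by the least. The difference was 1.06 (SE 0.31, adjusted p = 0.0271) with the transgene, 0.67 (SE 0.28, adjusted p = 0.0773) without it and 0.86 (SE 0.21, adjusted p = 0.00302) averaged, and the interaction did not pass (0.39, SE 0.41, adjusted p = 0.739). The call with the transgene ended without B10_insHEL replicate 2 or 3 or NOD_insHEL replicate 1 or 3 (highest adjusted p = 0.243) and in the fit on these 2 groups alone.

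Ier5 went the other way. Ier5 (ENSMUSG00000056708, chromosome 1, 155096361 to 155099636, minus strand) encodes a protein known to bind HSF1 and promote heat shock gene expression. It had 37.9, 42.9 and 48.0 CPM in B10, 36.9, 49.0 and 47.8 in B10_insHEL, 27.6, 31.6 and 34.4 in NOD and 26.3, 21.9 and 27.2 in NOD_insHEL. All 6 libraries of NOD background lay below all 6 of B10 background. It was lower by -0.46 (SE 0.14, adjusted p = 0.0149) without the transgene, by -0.84 (SE 0.15, adjusted p = 4.31e-04) with it and by -0.65 (SE 0.10, adjusted p = 4.00e-05) averaged. The averaged call remained in every alternative run, while the call without the transgene ended without B10 replicate 3 or NOD replicate 1 (highest adjusted p = 0.0727) and with either covariate.

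The 3 Nr4a nuclear receptor genes did not move together. Nr4a2 (ENSMUSG00000026826, chromosome 2, 57106830 to 57124003, minus strand; promoter shown above) was lower in NOD. It had 12.6, 11.4 and 10.2 CPM in B10, 30.2, 18.5 and 22.2 in B10_insHEL, 3.96, 8.21 and 4.18 in NOD and 11.2, 8.97 and 8.45 in NOD_insHEL. NOD libraries lay below B10, and NOD_insHEL below B10_insHEL, with overlap only between NOD_insHEL replicate 1 and B10. The difference was -1.03 (SE 0.24, adjusted p = 0.00397) without the transgene, -1.26 (SE 0.25, adjusted p = 0.00157) with it and -1.15 (SE 0.17, adjusted p = 4.40e-05) averaged, and these 3 calls remained in every alternative run.

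Nr4a1, which responds to calcium and cAMP in many endocrine cells, had 12.1, 14.2 and 27.5 CPM in B10, 47.7, 16.4 and 7.32 in B10_insHEL, 12.5, 75.4 and 28.9 in NOD and 73.7, 31.7 and 53.1 in NOD_insHEL. The groups overlapped, and NOD alone ran from 12.5 to 75.4 CPM. Its averaged difference of 1.15 was as large in size as that of Nr4a2 but had an SE of 0.58 and did not pass (adjusted p = 0.167). Nr4a3 was detected at 0.103 to 2.76 CPM and was higher in NOD than in B10 (1.25, SE 0.45, adjusted p = 0.0413), a call that ended under DESeq2, with either covariate and in 8 of 12 analyses with 1 library left out, and remained without NOD_insHEL replicate 3 or any B10_insHEL library. Its averaged call (1.08, SE 0.36, adjusted p = 0.0239) ended with the islet number and without B10 replicate 3, NOD replicate 2 or NOD_insHEL replicate 1.

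Of the MAP kinase phosphatases Dusp1 was higher in NOD throughout. Dusp1 (ENSMUSG00000024190, chromosome 17, 26505590 to 26562128, minus strand; promoter with the full cAMP response element shown above) dephosphorylates p38, JNK and ERK. It had 21.9, 16.4 and 24.3 CPM in B10, 26.1, 23.8 and 17.0 in B10_insHEL, 31.5, 38.2 and 35.1 in NOD and 36.7, 28.9 and 38.97 in NOD_insHEL. All 6 libraries of NOD background lay above all 6 of B10 background. The difference was 0.75 (SE 0.17, adjusted p = 0.00226) without the transgene, 0.62 (SE 0.18, adjusted p = 0.0229) with it and 0.69 (SE 0.12, adjusted p = 1.98e-04) averaged. The call with the transgene ended without B10_insHEL replicate 3 or NOD_insHEL replicate 1 or 3 (highest adjusted p = 0.108). Ergic1, which overlaps the annotated span of Dusp1 on the other strand, moved the opposite way (-0.38 averaged, SE 0.11, adjusted p = 0.0149).

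The other phosphatases differed among themselves. Dusp5, a nuclear phosphatase for ERK whose promoter holds the adjacent CArG boxes, had 28.0, 34.2 and 30.1 CPM in B10, 56.6, 43.0 and 39.6 in B10_insHEL, 38.7, 45.9 and 43.8 in NOD and 50.6, 55.9 and 50.7 in NOD_insHEL. B10 was the lowest group, without overlap with NOD or B10_insHEL. NOD exceeded B10 by 0.47 (SE 0.13, adjusted p = 0.0110), while with the transgene the difference was 0.18 (SE 0.14, adjusted p = 0.435). The call ended without B10 replicate 1 or NOD replicate 2 (highest adjusted p = 0.0555) and with the acinar score. The averaged call (0.33, SE 0.09, adjusted p = 0.0113) ended with the acinar score too.

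Dusp4, another nuclear phosphatase, was lower in NOD than in B10. It had 13.8, 16.4 and 17.3 CPM in B10, 19.8, 12.9 and 7.43 in B10_insHEL, 4.71, 10.2 and 7.49 in NOD and 14.3, 10.8 and 12.2 in NOD_insHEL. NOD lay below B10 without overlap. The difference was -1.07 (SE 0.30, adjusted p = 0.0150) without the transgene and -0.09 (SE 0.31, adjusted p = 0.896) with it, with an interaction of 0.98 that did not pass (adjusted p = 0.383). The former ended without NOD replicate 3 (adjusted p = 0.0543) and with either covariate. Dusp6, the cytoplasmic ERK phosphatase, had 22.6, 23.4 and 21.4 CPM in B10, 38.4, 36.2 and 23.3 in B10_insHEL, 17.8, 21.6 and 21.2 in NOD and 25.1, 22.4 and 29.6 in NOD_insHEL. It did not pass for strain (-0.27 averaged, SE 0.12, adjusted p = 0.0860).

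Among the regulators of mRNA decay Zfp36l2 was lower in NOD. It had 38.97, 41.7 and 45.7 CPM in B10, 28.7, 34.96 and 27.0 in B10_insHEL, 33.2, 34.5 and 28.9 in NOD and 22.1, 21.9 and 25.4 in NOD_insHEL. NOD was below B10 without overlap by -0.38 (SE 0.13, adjusted p = 0.0275), with the transgene the difference was -0.41 (SE 0.14, adjusted p = 0.0551), and averaged it was -0.40 (SE 0.09, adjusted p = 0.00250). The call for NOD against B10 ended without B10 replicate 2 or 3 or NOD replicate 3 (highest adjusted p = 0.123) and with either covariate. The averaged call ended with the acinar score. The paralog Zfp36 (12.2 to 40.2 CPM) did not pass (0.26 averaged, adjusted p = 0.305).

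Of the remaining early members Rhob, which encodes a small GTPase, passed for NOD against B10 alone. Rhob had 48.3, 48.9 and 41.5 CPM in B10, 69.6, 58.6 and 48.4 in B10_insHEL, 57.1, 57.9 and 64.1 in NOD and 54.4, 56.2 and 55.4 in NOD_insHEL. NOD lay above B10 without overlap. The difference was 0.37 (SE 0.12, adjusted p = 0.029), a call that ended without B10 replicate 2 or 3 or any NOD library (highest adjusted p = 0.162) and with either covariate. B10_insHEL exceeded B10 by 0.35 (SE 0.12, adjusted p = 0.0877), with overlap, and did not pass.

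Klf10, Myc and Socs3 did not pass in any comparison. Klf10, a Krüppel-like factor induced by TGF-beta, had 16.1, 22.9 and 20.0 CPM in B10, 24.6, 37.9 and 16.0 in B10_insHEL, 27.4, 25.6 and 25.5 in NOD and 31.7, 22.9 and 23.0 in NOD_insHEL. Myc, a growth regulator, had 3.45, 4.69 and 3.41 CPM in B10, 9.03, 5.91 and 2.48 in B10_insHEL, 2.81, 2.04 and 4.18 in NOD and 3.26, 5.28 and 7.98 in NOD_insHEL. Socs3, a feedback inhibitor of cytokine signalling, had 11.3, 10.0 and 11.5 CPM in B10, 25.6, 15.9 and 12.3 in B10_insHEL, 11.7, 18.4 and 15.8 in NOD and 17.2, 14.4 and 24.4 in NOD_insHEL. Among them only Socs3 separated B10 from B10_insHEL without overlap (0.71, SE 0.24, adjusted p = 0.0783). Klf10 (0.41, adjusted p = 0.214) and Socs3 (0.49, adjusted p = 0.134) separated NOD from B10 without overlap. Klf2, Klf4, Klf6 and the small Maf factor Maff did not pass either.

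Hspa8 showed the widest strain difference of all members. Hspa8 (ENSMUSG00000015656, chromosome 9, 40800984 to 40810087, plus strand) encodes Hsc70, the constitutive Hsp70 of the cytosol, which is needed for folding, clathrin uncoating and chaperone-mediated autophagy. It had 166, 166 and 89.1 CPM in B10, 86.3, 178 and 179 in B10_insHEL, 20.5, 14.7 and 9.36 in NOD and 14.0, 21.5 and 11.7 in NOD_insHEL. All libraries of B10 background had 86.3 CPM or more and all of NOD background 21.5 or less. The log2 difference was -3.21 (SE 0.42, adjusted p = 7.48e-04) without the transgene, -3.17 (SE 0.45, adjusted p = 0.00190) with it and -3.19 (SE 0.31, adjusted p = 7.06e-05) averaged, and these calls remained in every alternative run.

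The assignment of Hspa8 reads is uncertain. Of the 3109 stretches of 50 bases in its longest transcript 52.7% also occur in transcripts of 15 other annotated genes, and how reads with several matches were counted is not given in the sources used here. The 6 of these 15 genes that have rows held 5 counts for B10, 0 for B10_insHEL, 2 for NOD and 0 for NOD_insHEL, summed over 3 libraries each. Whether NOD alleles of Hspa8 map to GRCm38 as well as B10 alleles do was not tested.

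Hsp90aa1 and Hsph1 were also lower in NOD, less firmly. Hsp90aa1, the inducible cytosolic Hsp90, had 111, 139 and 77.1 CPM in B10, 60.8, 243 and 152 in B10_insHEL, 64.6, 39.8 and 34.99 in NOD and 46.0, 71.1 and 54.5 in NOD_insHEL. All NOD libraries lay below all B10 libraries, while NOD_insHEL replicate 2 lay above B10_insHEL replicate 1. The averaged difference was -1.32 (SE 0.35, adjusted p = 0.0205), and neither comparison passed alone (-1.22 with adjusted p = 0.0977 without the transgene, -1.41 with 0.117 with it). The averaged call ended without NOD replicate 2 or 3 or NOD_insHEL replicate 1 (highest adjusted p = 0.0542) and with the acinar score. Of its 50-base stretches 58.5% occur in 4 other genes, and the 3 of them with rows summed (unscaled) for B10 to 47.5 CPM, for B10_insHEL to 59.3, for NOD to 16.5 and for NOD_insHEL to 20.7, the same order of strains as Hsp90aa1 itself.

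For Hsph1 the averaged difference was -1.52 (SE 0.47, adjusted p = 0.0388), and neither comparison passed alone (adjusted p = 0.192 and 0.141). The call ended in 8 of 12 analyses with 1 library left out, those without B10 replicate 1 or 2, B10_insHEL replicate 2 or 3, NOD replicate 2 or 3 or NOD_insHEL replicate 1 or 3 (highest adjusted p = 0.0864), with the replicate number as a block and with either covariate. Hspa1a (-0.15, SE 0.74, adjusted p = 0.897), Hspa1b (-0.62, SE 0.76, adjusted p = 0.579), Dnajb1 (-0.58, SE 0.31, adjusted p = 0.190) and Hspb1 (-0.69, SE 0.34, adjusted p = 0.130) did not pass averaged. The signs of Hspa1a and Hspa1b turned without B10_insHEL replicate 3, to 0.78 and 0.20.

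With insHEL few members differed. In B10_insHEL against B10, where the description numbers divide the groups, 4 of 36 passed, 3 higher and 1 lower, where 6.85% of all genes passed (4.09% higher and 2.76% lower), and 0 to 5 passed when 1 library was left out, 0 of them without B10 replicate 3 and 1 without B10 replicate 1 or B10_insHEL replicate 1. Without B10 replicate 3, B10 replicate 1 and B10_insHEL replicate 1 in turn, 428 of 15524, 451 of 15528 and 1059 of 15718 genes passed. In NOD_insHEL against NOD 1 of 36 passed, where 7.06% of all genes passed (3.88% higher and 3.18% lower). With no filter on low counts 3 members and 1452 of 22976 genes passed there. For the interaction 0 of 36 passed in edgeR (0.0586% of all genes passed, 0.0456% above and 0.013% below 0) and 0 under DESeq2. In edgeR 5 had an unadjusted p under 0.05, and the lowest adjusted p was 0.268 (Jun and Jund). No heat shock member passed for the transgene in either strain. The acinar markers summed to 3368 to 4310 CPM in B10 and to 68.8, 2344 and 44.7 in the B10_insHEL replicates 1 to 3, and to 149 to 261 in NOD against 56.3 to 103.5 in NOD_insHEL. The endothelial sum was 1042 to 1157 CPM in B10, 1222 to 1292 in B10_insHEL, 1418 to 2035 in NOD and 1091 to 1279 in NOD_insHEL, without overlap within either strain. With the acinar score as a covariate 1 member passed in B10 and 0 in NOD, where 248 and 1249 of 15352 genes passed. The score of B10 overlapped that of no other group, so that this covariate is hardly separable from group in B10_insHEL against B10. The part of the endothelial cells in these differences was not tested. The libraries did not overlap for 7 of 36 members in B10_insHEL against B10 and for 9 of 36 in NOD_insHEL against NOD, where 26.7% and 26.6% of all genes did not overlap.

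Nr4a2 was higher with insHEL in B10, by 1.04 (SE 0.22, adjusted p = 0.00798), from 11.4 ± 1.21 to 23.6 ± 5.97 CPM (n = 3 each) without overlap. In NOD it went from 5.45 ± 2.39 to 9.55 ± 1.47 CPM, also without overlap, and missed the threshold (0.81, SE 0.27, adjusted p = 0.0714). The call in B10 ended without B10 replicate 3 (adjusted p = 0.0518) and with the acinar covariate. Dusp5 was higher with insHEL in B10 by 0.59 (SE 0.13, adjusted p = 0.00982), a call that ended without B10 replicate 1 or 3 or B10_insHEL replicate 1 (highest adjusted p = 0.0614) or with the acinar score. Dusp6 was higher there by 0.54 (SE 0.16, adjusted p = 0.0456), with 21.4 to 23.4 CPM in B10 and 23.3 to 38.4 in B10_insHEL, and its call ended in 10 of 12 analyses with 1 library left out (highest adjusted p = 0.167), all but those without replicate 3 of B10_insHEL or of NOD_insHEL. It also ended with the replicate block, with either covariate and with only the compared groups fitted.

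Zfp36l2 was lower with insHEL in both strains. The difference was -0.48 (SE 0.13, adjusted p = 0.0264) in B10 and -0.51 (SE 0.14, adjusted p = 0.0305) in NOD, without overlap in either, so that B10 had the highest and NOD_insHEL the lowest values of the 4 groups. The call in B10 ended without B10 replicate 1, 2 or 3 or B10_insHEL replicate 1 or 3 (highest adjusted p = 0.128), and that in NOD without NOD replicate 1 or 2 or NOD_insHEL replicate 1 or 2 (highest adjusted p = 0.142). Both ended with the acinar score as a covariate, and that in B10 also with the islet number and with only the compared groups fitted.

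Further genes of the same responses were read from lists that are not the members. Of 40 other early response genes tested 4 were higher and 8 lower in NOD averaged over the transgene and 28 did not pass, with a median log2 difference of 0.07. The highest in NOD by the smallest adjusted p were Dusp10, another MAP kinase phosphatase (0.66, SE 0.11, adjusted p = 8.74e-05), and Ccn1, a matricellular target of serum response factor and YAP (1.11, SE 0.19, adjusted p = 1.75e-04). Gadd45b (-1.15, SE 0.21, adjusted p = 3.80e-04) and the growth factor gene Hbegf (-0.80, SE 0.18, adjusted p = 0.00187) were lower. Of 34 other heat shock and co-chaperone genes 5 rose, 9 fell and 20 missed the threshold in NOD, with a median of -0.22.

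Co-chaperones moved both ways. Dnaja4 (-0.70, SE 0.10, adjusted p = 2.01e-05) and Hspe1, the mitochondrial Hsp10 (-1.11, SE 0.16, adjusted p = 2.92e-05), were lower in NOD, while the nucleotide exchange factor Bag1 (0.37, SE 0.09, adjusted p = 0.00234) and the small heat shock gene Hspb8 (0.79, SE 0.17, adjusted p = 0.00404) were higher. Of 23 upstream regulators 4 were higher, 2 lower and 17 did not pass. Elk4, which partners serum response factor, was higher by 0.54 (SE 0.08, adjusted p = 3.49e-05) and the MAP kinase kinase Map2k2 by 0.37 (SE 0.09, adjusted p = 0.00409), while the S6 kinase Rps6ka3 (-0.33, SE 0.08, adjusted p = 0.00307) and Creb1 (-0.25, SE 0.10, adjusted p = 0.0467) were lower. Among these lists the shares that passed, 30.0%, 41.2% and 26.1%, lay around the 33.3% of all genes.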

How the data were processed

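Per the labels' protocols, RNA of isolated islets was made into libraries with a stranded mRNA kit. The authors deposited raw read counts per Ensembl gene for 38561 genes and 12 libraries, and all columns were used. The build GRCm38 and the programs TopHat2 2.0.8b, HTSeq, cutadapt and DESeq appear in the submitters' processing notes, with no order. The annotation release, strand setting and treatment of reads with several matches are not given in the sources used here. Symbols, coordinates and merged exon lengths come from GENCODE vM21 (GRCm38), which names 95.2% of the identifiers.

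Counts were analysed with edgeR 4.0.16 in R 4.3.3. Genes passing filterByExpr (15352) were scaled by TMM, and 1 model of the 4 group means was fitted to the 12 libraries with robust quasi-likelihood dispersions. The fit was also run on simulated counts in which every gene had the same spread (biological coefficient of variation 0.142). Many members, above all the heat shock ones, varied more than most genes, so that this run says nothing about their calls. The 6 comparisons are the strain difference without and with insHEL and averaged, the transgene in each strain, and the interaction (the NOD transgene difference less the B10 one). SE is the absolute log2 difference divided by the square root of F. Log2 deviations use edgeR's log2 CPM with a prior count of 2. The acinar score is the mean log2(CPM + 1) of 17 acinar genes.

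Alternatives were RLE size factors, DESeq2 1.42.0, no filter, a replicate block, the log2 islet number and the acinar score as covariates, only the compared groups, and each library left out. Members and lists were chosen with earlier results of these data known. Values are given in full for members that passed in NOD_insHEL against B10_insHEL, NOD_insHEL against NOD or the interaction, the 10 with the smallest adjusted p in each other comparison, the 3 highest and 3 lowest per kilobase, and Fos, Jun, Egr1, Hspa1a and Hspa1b, and from each other list for the 2 genes with the smallest adjusted p in each direction. Nr4a1, Hsp90aa1, Junb, Nr4a3, Myc, Dnajb1 and Hspb1 were named after their values were seen. Each library is 1 mouse.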

Additional observations from a re-analysis of the deposited data

How the results depend on the processing

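Of the 40 member calls in the 5 comparisons 14 remained under every alternative and 26 ended under at least 1. The acinar score ended 20, the islet number 14, only the compared groups 4, the replicate block 3, and RLE size factors, DESeq2 and no filter 1 each. The islet numbers were 74, 50 and 20 in B10 and 44, 116 and 78 in B10_insHEL. They were 53, 137 and 108 in NOD and 114, 94 and 77 in NOD_insHEL. As a covariate the islet number is therefore partly tied to group wherever B10 enters. The score was 6.71 to 7.01 in B10, 1.55 to 6.26 in B10_insHEL, 2.82 to 3.47 in NOD and 1.65 to 2.37 in NOD_insHEL. That of B10 overlapped no other group, so that as a covariate it is hardly separable from group wherever B10 enters. The cause was not tested, and without 1 library the fit has fewer samples. Replicate numbers name different mice, and of 18 pairs of same-numbered libraries none had a correlation of deviations over 0.1 (-0.10 to 0.08). These correlations run over all genes tested, so that they cannot show whether same-numbered libraries share a factor in a few genes. With the replicate block the member counts were 13 for NOD against B10, 6 for NOD_insHEL against B10_insHEL, 15 averaged, 3 for B10_insHEL against B10, 1 for NOD_insHEL against NOD and 0 for the interaction. All genes that passed with it numbered 4263, 1857, 5023, 1032, 961 and 8 of 15352, in the same order.

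Member counts for NOD against B10 (14) were 7 with the islet number and 7 with the acinar score, and the averaged count (15) was 9 with the acinar score. All genes that passed went from 4353 to 2688 and 1198, and averaged from 5107 to 2154. Member counts for B10_insHEL against B10 (4) were 2 with the islet number, 1 with the acinar score and 2 with only the compared groups, and for NOD_insHEL against NOD (1) they were 3 with no filter, 0 with the acinar score and 2 under DESeq2. All genes that passed went from 1052 to 578, 248 and 646 for the former comparison, and from 1084 to 1452, 1249 and 1420 for the latter. Leaving out 1 library gave 8 to 15 members for NOD against B10, 3 to 10 for NOD_insHEL against B10_insHEL, 12 to 18 averaged, 0 to 5 for B10_insHEL against B10, 0 to 2 for NOD_insHEL against NOD and 0 for the interaction. All genes that passed then ran, in the same order, from 2868 to 4863, 1344 to 1978, 4301 to 5245, 428 to 1566, 107 to 1522 and 2 to 162. The averaged difference of Hspa1a (-0.15) turned to 0.01 with the islet number and to 0.10, 0.78 and 0.04 without B10 replicate 2, B10_insHEL replicate 3 and NOD replicate 3, and that of Hspa1b (-0.62) to 0.20 without B10_insHEL replicate 3. Over all analyses with 1 library left out they ran from -0.73 to 0.78 and from -1.14 to 0.20. RLE size factors left the median difference of all genes between -0.01 and 0.02. The depth of NOD_insHEL replicate 3 limits calls of members under about 1 CPM.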
